A study of Mus musculus with 10 samples.

Results

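The genes described here are 4 keratins (*Krt7*, *Krt8*, *Krt18* and *Krt19*) and 3 genes of epithelial adhesion (*Cdh1*, *Epcam* and *Cldn6*) in hearts of mouse embryos. They are 7 of the 23195 genes, and of the 16973 protein-coding genes, in a table that compares *Nos1ap* null with wild-type hearts. They were taken by name, and the names were chosen by the wild-type and null mean levels in that table, which were known. Their levels and genotype differences are therefore given as a description, with no test. Hearts were dissected at embryonic day 13.5 from male C57BL6/J embryos, 5 wild-type and 5 *Nos1ap* null, and each gave a stranded polyA RNA-seq library. The null embryos were homozygous for the tm1d allele, which lacks the fourth exon of *Nos1ap* in every tissue and not in the heart alone. The allele descends from targeted ES cells of a repository.

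Keratins are the intermediate filaments of epithelia and assemble as pairs of a type II chain (*Krt7*, *Krt8*) with a type I chain (*Krt18*, *Krt19*), and these 4 are the keratins of simple, single-layered epithelia. E-cadherin (*Cdh1*) joins the adherens junctions of most epithelia, *Epcam* encodes a surface adhesion molecule of simple epithelia, and *Cldn6* encodes a tight junction protein of embryonic epithelia. The heart has no glandular epithelium, but its outer layer, the epicardium, is a mesothelium. Mesothelia form a sheet and carry keratins, whereas E-cadherin and Epcam mark many other epithelia, among them the foregut and airway next to the heart in the embryo. The question put to the data was which of the 7 genes went with mesothelial transcripts and which with transcripts of other tissues.

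The deposited values are means of normalized counts over the 5 libraries of a group. A normalized count is a count of read pairs over a size factor, which scales each library for depth. The whole counts of single libraries were worked out from these means for all 7 genes, and the libraries are numbered 1 to 5 within a genotype by falling size factor, which is not the replicate number of the labels. Size factors ran from 0.918 to 1.15, and the libraries held an estimated 11328000 to 14023000 read pairs counted in genes. *Nos1ap* itself was at 126 to 161 normalized counts in the wild-type libraries and 31.1 to 44.4 in the null libraries. The heart muscle genes *Myh7* (authors' means over the 2 genotypes averaging 129013) and *Actc1* (99898) were high. Wild-type library 3 stood apart from the rest over all genes. In it 268 of 12445 genes had at least 10 read pairs and were at least 4-fold above the median of the other libraries plus 1, against 2 to 43 in each of the others, where null library 2 had the 43. Every result below that rests on wild-type library 3 is therefore also given without it.

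All 4 keratins were expressed at a near-even level in all 10 libraries, whatever the genotype. *Krt7*, a type II chain of glandular and mesothelial cells, lies at chr15:101411043-101430313 on the plus strand (GRCm38, GENCODE M21, as for all genes here). Its normalized counts in wild-type libraries 1 to 5 were 346, 231, 314, 291 and 259, and in null libraries 1 to 5 they were 257, 316, 276, 294 and 316. Wild-type libraries 1 and 2 were the highest and lowest of the 10, and all null values lay between them. The means were 288 ± 45.1 in wild type and 292 ± 25.4 in null (SD, n = 5 each), a log2 ratio of null to wild type of 0.02.

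*Krt8*, the type II chain that pairs with *Krt18*, lies at chr15:101996698-102004482 on the minus strand. Its normalized counts were 159, 133, 161, 142 and 112 in the wild-type libraries and 116, 140, 137, 142 and 147 in the null libraries, in the order of their numbers. The highest 2 and the lowest of the 10 values were wild type, so the null range lay inside the wild-type range. The means were 141 ± 20.3 and 136 ± 11.9 (SD, n = 5 each), a log2 ratio of -0.05.

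*Krt18*, the type I partner of *Krt8*, is found on the same chromosome at chr15:102028180-102032027 on the plus strand. Wild-type libraries had 240.1, 248, 229, 227 and 206 normalized counts, and null libraries had 212, 250.4, 238, 246 and 205. The highest and the lowest value were both null, and the mean was 230.0 ± 15.9 in wild type and 230.3 ± 20.5 in null (SD, n = 5 each). *Krt19*, the smallest keratin, with a type I chain that lacks most of the tail, lies apart from the others at chr11:100140810-100148665 on the minus strand. It was at 616, 645, 608, 624 and 540.0 normalized counts in the wild-type libraries and at 575, 595, 648, 570.2 and 534 in the null libraries. Again null libraries held both extremes, and the means of 607 ± 39.6 and 585 ± 42.0 (SD, n = 5 each) gave a log2 ratio of -0.05.

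The spread between libraries was small for all 4 keratins and close to what counting alone gives for one of them. The coefficient of variation over the 10 libraries was 7.51% for *Krt18*, where counting error alone would give 6.57%. It was 6.75% for *Krt19* against 4.08%, 11.5% for *Krt8* against 8.47%, and 11.9% for *Krt7* against 5.86%. *Krt7* thus varied most beyond its counting error, on 239 to 398 read pairs per library. For *Krt7*, *Krt18* and *Krt19*, whose means exceed 200, the set of whole counts nearest to equal expression was taken, so a larger spread in these 3 genes would be harder to see than in *Krt8*, for which every set was searched. In bulk hearts, fewer cells of a type cannot be told apart from less RNA per cell.

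The 3 adhesion genes were close to the limit of detection in 9 libraries and raised in wild-type library 3. *Cdh1* lies at chr8:106603351-106670246 on the plus strand, and its wild-type libraries 1 to 5 held 2, 3, 16, 1 and 4 read pairs, while its null libraries held 4, 1, 3, 1 and 1. Wild-type library 3 thus had 44.4% of all *Cdh1* read pairs, and the lower bound of its 95% exact Poisson interval (9.15 to 26.0 read pairs, counting error only) was above every other count. As normalized counts, *Cdh1* was at 16.3 in that library and at 1.01 to 4.14 in the other 9. The group means were 5.22 ± 6.30 and 1.96 ± 1.25 (SD, n = 5 each), a log2 ratio of -1.41, which became -0.32 without wild-type library 3, where the wild-type mean was 2.45 ± 1.36 (n = 4).

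*Epcam* (chr17:87635979-87651129, plus strand) had 5, 4, 13, 5 and 4 read pairs in the wild-type libraries and 4, 6, 0, 4 and 3 in the null libraries. Wild-type library 3 was again the highest, with 27.1% of the read pairs, and its normalized count of 13.2 was 3.20 times the median of the other libraries. A null library was the lowest, and its count of 0 allows up to 3 read pairs. The group means were 6.15 ± 3.99 and 3.44 ± 2.20 (SD, n = 5 each), a log2 ratio of -0.84, against -0.35 without wild-type library 3.

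*Cldn6* (chr17:23679249-23682446, plus strand) gave only 6 read pairs in all, of which 4 were in wild-type library 3 and 1 each in wild-type libraries 1 and 5. The other wild-type libraries and all null libraries had 0, and 0 over the null group allows up to 3 read pairs. Outside wild-type library 3, both groups lay under those 3 read pairs, so no fold is given, and the mean difference of null minus wild type was -1.20 normalized counts with that library and -0.48 without it.

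**Figure D1:**
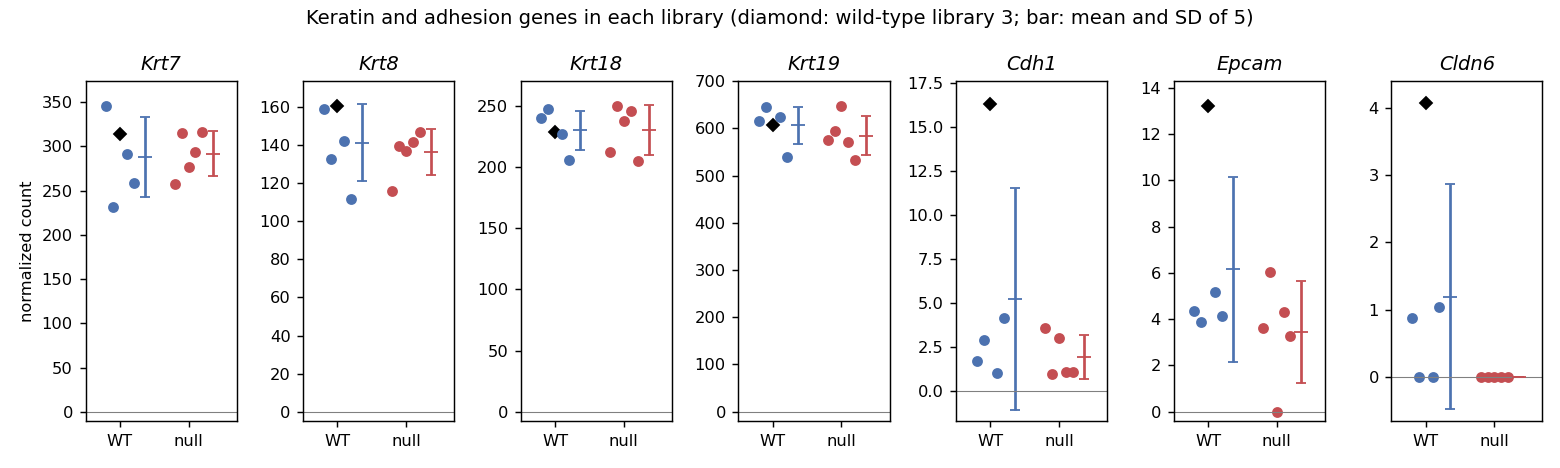
Normalized count (y axis, linear) of each of the 7 genes in the 5 wild-type (blue) and 5 *Nos1ap* null (red) libraries, with the mean and SD of each group beside the points and wild-type library 3 as a black diamond. The ranges of the keratins overlap between the genotypes, while the diamond is the highest point for *Cdh1* (16.3), *Epcam* (13.2) and *Cldn6* (4.07).

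Across all genes, the genotypes were compared with limma on log2(normalized count + 1), for protein-coding genes with a mean of at least 10. It called 3 of 10228 genes at an FDR of 5% (0.0293%), and 366 had an unadjusted *P* under 0.05. The 4 keratins were fitted and 0 of them was called. *Cdh1*, *Epcam* and *Cldn6* were under the mean of 10 and were not fitted. The ranges of the wild-type and null libraries overlapped for all 7 genes, where 0.792% of the 10228 fitted genes had ranges that did not overlap. Since the choice of the genes used this contrast, nothing is read from these counts.

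Per kilobase of the longest protein-coding transcript, the mean level over both genotypes was 378 normalized counts for *Krt19*, 160.1 for *Krt18*, 70.9 for *Krt8* and 70.8 for *Krt7*. The annotated *Krt7* transcript is long, and per kilobase of coding sequence the levels were 493 for *Krt19*, 212 for *Krt7*, 181 for *Krt18* and 94.5 for *Krt8*. *Krt19* led and *Krt8* was under *Krt18* on either length, while the place of *Krt7* depended on the length taken. Per kilobase of transcript, *Krt7* and *Krt8* overlapped across the libraries, and so did *Krt7* and *Krt18* per kilobase of coding sequence. *Epcam* was at 2.35, *Cdh1* at 0.81 and *Cldn6* at 0.37 normalized counts per kilobase of transcript, and the ranges of these 3 overlapped.

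Per kilobase of transcript, the ratio of *Krt8* to its partner *Krt18* ran from 0.393 to 0.527 over the 10 libraries. The level of *Krt8* was 0.451 ± 0.0540 times that of *Krt18* in wild type and 0.437 ± 0.0513 times in null (SD, n = 5 each). Null library 5, at 0.527, was the highest of the 10, and the other null libraries lay between 0.401 and 0.423.

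Other keratins apart from *Krt80* were far lower. The table held 22 keratin genes, of which 10 had a mean of at least 10 normalized counts and 7 a mean under 1. *Krt7*, *Krt8*, *Krt18* and *Krt19* together took 82.8% of all keratin normalized counts in wild type and 82.3% in null. The next, *Krt80*, had 33.8 normalized counts per kilobase of transcript, under all 4, but 199.7 per kilobase of coding sequence, above *Krt8* and *Krt18*. Per kilobase of transcript, *Krt10* and *Krt14*, of stratified epithelium, had 13.7 and 7.75. *Krt5*, the basal cell partner of *Krt14*, was at 0.37.

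Some filament and cadherin genes of other cells were at higher levels. Vimentin (*Vim*), the filament of mesenchyme, was at 7273 and desmin (*Des*), that of muscle, at 2844 normalized counts per kilobase of transcript. Among cadherins, N-cadherin (*Cdh2*) of heart muscle and mesothelium was at 1241 and P-cadherin (*Cdh3*) at 351, against 0.81 for *Cdh1*. Among claudins, *Cldn12* was at 88.8 and *Cldn15* at 20.8, against 0.37 for *Cldn6*.

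**Figure D2:**
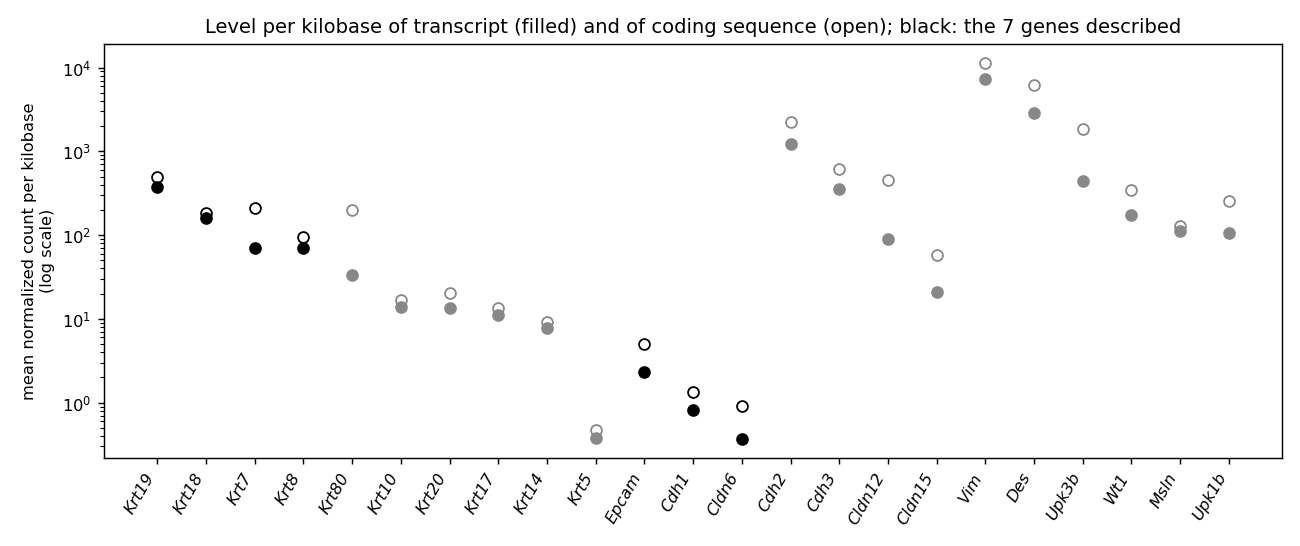
Mean normalized count per kilobase (y axis, log scale) of the 7 genes (black) and of related genes and mesothelial markers (grey), per kilobase of the longest protein-coding transcript (filled) and of its coding sequence (open). The 4 keratins lie near mesothelial markers such as *Msln*, and *Cdh1*, *Epcam* and *Cldn6* lie below *Krt14*.

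The stretch before the RefSeq start site is shown for 2 of the even keratins and for *Epcam*, because all of them carry the E-box CAGGTG or its reverse complement CACCTG, the site of the Snail and Zeb repressors that are known to silence *Cdh1*. Sequences are from RefSeq (GRCm38.p6), 5′ to 3′ on the strand of the gene, with the E-box in capitals and exons of the gene's protein-coding transcripts left off. They are chr15:101412153-101412401 for *Krt7*, chr15:102027966-102028179 for *Krt18* and chr17:87635729-87635978 for *Epcam*, all on the plus strand. The *Krt7* stretch lies before the first exon of its longest protein-coding transcript but inside the gene as annotated, in an intron of another transcript, and it overlaps an exon of a noncoding one.
Krt7: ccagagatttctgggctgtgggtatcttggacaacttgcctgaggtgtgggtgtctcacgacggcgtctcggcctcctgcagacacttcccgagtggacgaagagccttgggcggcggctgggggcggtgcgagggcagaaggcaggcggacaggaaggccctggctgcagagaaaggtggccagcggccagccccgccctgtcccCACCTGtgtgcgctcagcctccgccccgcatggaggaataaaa
Krt18: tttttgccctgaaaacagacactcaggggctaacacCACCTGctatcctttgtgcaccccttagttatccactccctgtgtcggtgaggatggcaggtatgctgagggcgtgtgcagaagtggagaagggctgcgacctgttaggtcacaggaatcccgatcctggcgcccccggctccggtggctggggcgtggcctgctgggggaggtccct
Epcam: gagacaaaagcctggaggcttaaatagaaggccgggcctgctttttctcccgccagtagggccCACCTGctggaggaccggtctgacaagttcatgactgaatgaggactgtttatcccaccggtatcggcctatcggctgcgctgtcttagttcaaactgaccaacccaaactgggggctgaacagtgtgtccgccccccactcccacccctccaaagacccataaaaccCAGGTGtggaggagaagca
Of the 7 genes, 5 had an entry, all but *Krt19* and *Cdh1*. In the 250 bases before the RefSeq start, each of the 5 held the E-box at least once on either strand, and *Epcam* held it at 2 places, 187 and 19 bases before the start. Among 32851 promoters, 17.2% held it in a window of that length. The windows of the 5 genes were 53.6% to 66% G or C, beside a median of 52.4%, and no match for this is shown. In *Krt8* and *Cldn6* the match falls inside an exon of the annotated transcript. The match is a run of letters and no evidence of binding. The genes of the repressors were expressed. Authors' means in wild type and null were 1011 and 1087 normalized counts for *Zeb1* and 694.5 and 709.6 for *Zeb2*. They were 141 and 136 for *Snai1* and 228 and 203 for *Snai2*. *Twist1*, a mesenchymal regulator that acts beside them, was at 397 and 374.

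Mesothelial transcripts were present in all hearts, as the keratins were. All 12 genes of a mesothelial and epicardial list were in the table with a mean of at least 10, and counts were worked out for 9. The wild-type libraries had summed normalized counts of 2134 to 2535 for these, and the null libraries 2435 to 2703. *Wt1*, the regulator of the epicardium, ran from 468 to 635 over the 10 libraries. Mesothelin (*Msln*) ran from 219 to 279.9, and the uroplakin *Upk1b* from 169 to 226. In wild-type library 3 the sum was 2461, or 1.01 times the median of the other libraries, and the sum of the 4 keratins was 1311, within the 1116 to 1361 of the other 9. Of the 9 genes, 0 was called between the genotypes by limma and 2 (*Wt1* and *Bnc1*) had an unadjusted *P* under 0.05. Of all 10228 genes fitted, 3 were called and 366 had such a *P*. The summed keratins divided by the summed mesothelial markers gave 0.537, 0.589, 0.533, 0.545 and 0.514 in wild-type libraries 1 to 5, and 0.477, 0.507, 0.524, 0.463 and 0.491 in the null libraries. The ranges overlapped, with 4 of the 5 null values under the lowest wild-type value. This ratio was not tested.

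Transcripts of other tissues were high in wild-type library 3. Counts were worked out for 7 of 10 neuronal markers, and their sum was 2715 normalized counts there against 116 to 135 in the other 9 libraries. *Stmn2*, which encodes a microtubule protein of growing axons, was at 575 against 19.6 to 41.9. All 7 neuronal markers were highest in that library.

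Epithelial markers from outside the heart also stood out there, at far lower counts. The lung and foregut list had 7 of its 10 genes in the table, and they summed to 22.4 normalized counts in wild-type library 3 and 2.61 to 8.28 elsewhere. *Foxa2*, a regulator of foregut endoderm, was at 9.16 against 0 to 1.03, and the ligand *Shh* was at 5.09 against 0 to 0.90. *Nkx2-1*, *Sftpc* and *Cldn18*, the defining lung genes of the list, were not analysed here.

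The thymus and pharyngeal list had 6 of 8 genes in the table, and its sum was 266 in wild-type library 3 and 89.3 to 131 elsewhere. *Pax9*, a regulator of the pharyngeal pouches, was at 11.2 there against 0 to 2.90. The stratified epithelium list, with 8 of 10 genes worked out, summed to 99.8 there and to 59.5 to 78.4 elsewhere, with *Krt15* at 10.2 against 0 to 2.06 and *Trp63* at 11.2 against 1.74 to 6.03. *Krt14* was at 13.2, inside the 7.04 to 23.7 of the other libraries. Fetal liver genes, 9 of 10 worked out, were not raised, at 263 against 191 to 342. The markers named in these lists, other than those at the highest level, were chosen after their values were seen.

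*Cdh1*, *Epcam* and *Cldn6* moved with these lists in that 1 library, with a sum of 33.6 normalized counts against 3.02 to 9.31 in the other 9. Over 42 further epithelial genes of the lists with a mean of 0.2 to 10 normalized counts, 18 (42.9%) were highest in wild-type library 3. That was so for 22.03% of all 3504 protein-coding genes at such a level. The mean is over all 10 libraries, so a gene can enter through wild-type library 3 alone. *Cldn9* did, with 2 read pairs there and 0 elsewhere. The sum of the 42 genes was 167 normalized counts there and 81.6 to 98.1 elsewhere. For that reason the share and the sum are a description only. Whether RNA of a neighbouring tissue carried these transcripts into the library was not tested.

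**Figure D3:**
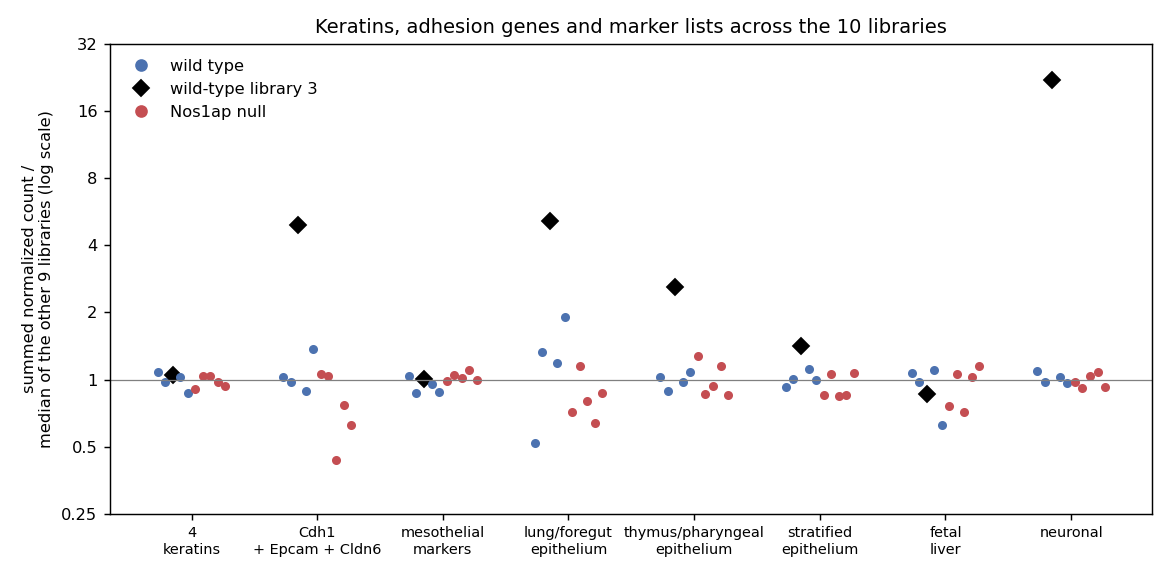
Summed normalized count of the 4 keratins, the 3 adhesion genes and the marker lists in each library, divided by the median of the other 9 libraries (y axis, log scale), for wild type (blue), wild-type library 3 (black diamond) and *Nos1ap* null (red). In wild-type library 3 the keratins and the mesothelial markers (1.01) lie at the level of the other libraries, while the lung and foregut (5.14), thymus and pharyngeal (2.60) and neuronal (22.1) sums lie above them.

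Over the 10 hearts, *Krt7* tended to rise with the mesothelial markers, but the relation did not pass adjustment over all pairs. The score of a list is the mean over its genes of the centred log2(normalized count + 1). With the mesothelial score, *Krt7* had a Pearson's r of 0.80 (permutation *P* = 0.00578) and a Spearman's rho of 0.84 (permutation *P* = 0.00395), two-sided over 10 libraries. Adjusted over the 42 pairs of a gene and a list, *P* was 0.217 and 0.166, so the relation did not pass. The r was 0.87 without the 2 libraries farthest from the median score and 0.83 without wild-type library 3. With each library left out in turn it ran from 0.68, without wild-type library 2, to 0.92, without null library 4. The latter passed, with a permutation *P* of 0.0063 adjusted over the 42 pairs.

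The other keratins had lower values over the 10 libraries, an order that was not tested and that rests on single libraries, since without wild-type library 2 *Krt18* had an r of 0.73 and *Krt7* 0.68. *Krt8* had an r of 0.59 and a rho of 0.65 (permutation *P* = 0.0676 and 0.0485, adjusted 0.355 and 0.520). *Krt18* had 0.33 and 0.31 (*P* = 0.345 and 0.388, permutation, adjusted 0.658 and 0.862), and *Krt19* had -0.11 and -0.24 (*P* = 0.766 and 0.512, permutation, adjusted 0.947 and 0.862). Without the 2 libraries farthest from the median score, r was 0.78 for *Krt8*, 0.67 for *Krt18* and 0.39 for *Krt19*. None of the 42 pairs passed an FDR of 5%, and 6 by r and 3 by rho had an unadjusted permutation *P* under 0.05. Those by r took in *Krt7* with the mesothelial score and *Krt19* with an endothelial score of 1 gene (*Emcn*). The rest were *Cdh1* and *Cldn6*, each with the lung and foregut score and with the neuronal score. Without wild-type library 3, r with the lung and foregut score was 0.48 for *Cdh1* and 0.35 for *Cldn6*. For *Cdh1*, *Epcam* and *Cldn6* with the neuronal score, wild-type library 3 forms a group of its own, so r is given over the other 9 libraries only. It was 0.09 for *Cdh1*, -0.21 for *Epcam* and 0.23 for *Cldn6*.

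Between the keratins, 6 pairs were looked at, as a description. *Krt7* with *Krt8* had the highest r, 0.76, with a rho of 0.81, and r was 0.89 without the 2 libraries farthest from the median. *Krt18* with *Krt19* had an r of 0.70 and a rho of 0.49, and r was 0.25 without the 2 farthest libraries, so it rests on those. The partners *Krt8* and *Krt18* had an r of 0.42 and a rho of 0.04, and r was -0.34 without the 2 farthest libraries.

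**Figure D4:**
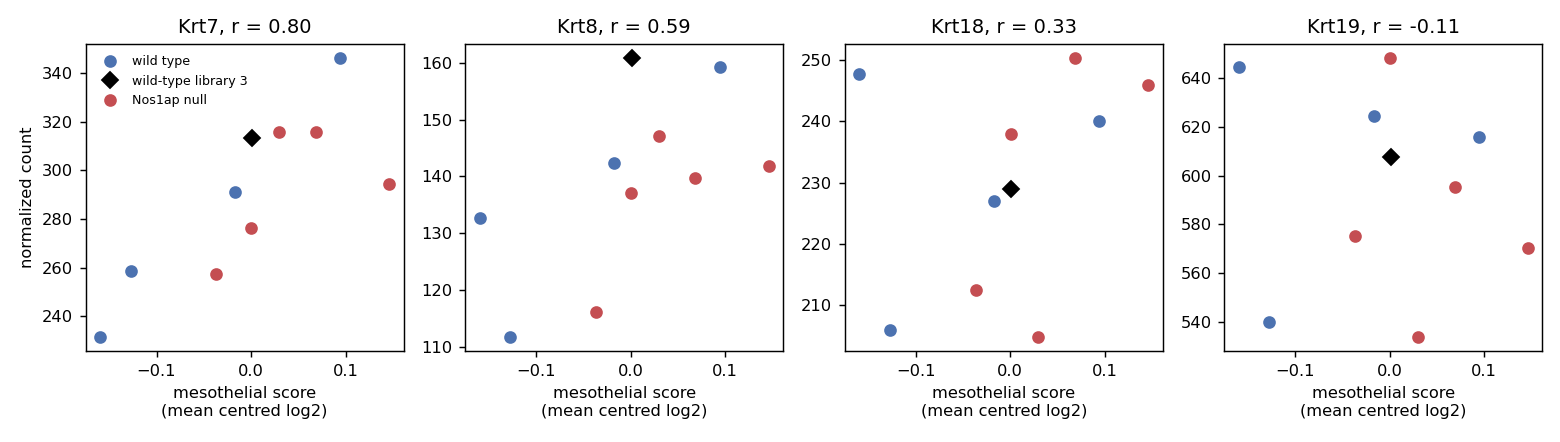
Normalized count of each keratin (y axis) against the mesothelial score (x axis, mean centred log2 of 9 genes) in wild type (blue), wild-type library 3 (black diamond) and *Nos1ap* null (red). The points of *Krt7* rise with the score (r = 0.80), those of *Krt19* do not (r = -0.11).

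The genes most like each keratin over the 10 libraries, out of 10220, were not other keratins. They were *Zfp787* (r = 0.94) and *Clvs1* (0.91) for *Krt7*, *Slc7a14* (0.95) and *Wnk2* (0.95) for *Krt8*, *Cav3* (0.91) and *Mrpl1* (0.91) for *Krt18*, and *Mrps17* (0.90) and *Ppl* (0.88) for *Krt19*. *Krt8* was 117th in the order for *Krt7*. With 10 points and so many genes, r of this size is a description only.

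Of 98 further genes of epithelial structure and its regulation, 89 were in the table and counts were worked out for 71. Of these, 37 were fitted, and 0 was called by limma in either direction, where 3 of all 10228 genes (0.0293%) were called. At that share, 0 of 37 is no result about these genes. An unadjusted *P* under 0.05 was given to 3 of the 37, and to 366 of all 10228 genes. The median log2 fold change of the 37 was -0.03, beside -0.0045 over all 10228 genes. *Dsc2*, a desmosomal cadherin of heart muscle and epithelia, came nearest, at 558 to 652 normalized counts in wild type and 685 to 754 in null, with a log2 fold change of 0.25 ± 0.05 (SE, limma, adjusted *P* = 0.148). *Krt17*, a keratin of stressed epidermis, had 11.3 to 17.6 and 16.3 to 24.1 (log2 fold change 0.55 ± 0.22). *St14*, a membrane protease of epithelia, had 15.5 to 27.8 and 11.1 to 19.3 (-0.56 ± 0.23). Both had an adjusted *P* of 0.998 with limma.

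By group, the fitted genes were 6 other keratins, 10 of the tight junction and 4 of adherens junctions and desmosomes. There were also 5 of surface proteins and proteases, 9 regulators and 3 other intermediate filaments. Like all but 3 of the 10228 genes, they were uncalled by limma. Junction genes that heart muscle shares with epithelia were high. Among them were β-catenin (*Ctnnb1*), with a mean of 2575 normalized counts per kilobase of transcript, and desmoplakin (*Dsp*), with 623. Neither of these was fitted. Regulators of the epithelial state differed in level. Per kilobase of transcript, the grainyhead genes *Grhl1* and *Grhl3* were at 26.2 and 32.8 normalized counts and *Grhl2* at 1.49, *Elf3* at 3.31 and *Esrp1*, a splicing factor of epithelia, at 0.21 normalized counts. *Esrp1* had 4 of its 8 read pairs in wild-type library 3.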

How the data were processed

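Polyadenylated RNA of 10 hearts was sequenced, and groups were taken from the genotype in the labels. Per the labels and the study's methods, Trimmomatic 0.36 trimmed the reads, RSEM 1.2.31 with STAR estimated counts per gene on GENCODE M10 (GRCm38), and DESeq 1.24.0 normalized and compared them. The signal values the authors deposited are group means of normalized counts, and their fold changes and p-values were not used. The members and lists were chosen with earlier results of these data known. Whole counts of each library were derived from the means by lattice reduction (numpy 2.4.6). Every possible set was searched for means below 200. For means of 200 to 1000, the most even set was used, provided that the expected number of rival sets was 0.01 or less. This gave 98.5% of wild-type and 98.9% of null means under 1000. The depth per library was estimated from the size factors and the sum of the group means. limma 3.58.1 (trend, robust, R 4.3.3) was run on log2(normalized count + 1) and the scripts were tested on simulated data. Permutation tests drew 100000 orders. Alternatives were a pseudocount of 0.5, minimum means of 1 and 0, voom, library totals, and each library left out. Correlations between keratins, values without wild-type library 3, and coding length were added after seeing the data. The rule for named genes took the 7 members, list genes at the highest level or called, and the 5 genes most like each keratin, of which 2 are printed. *Dsc2*, *Krt17*, *St14* and markers high in wild-type library 3 fall outside it and were chosen after their values were seen. Intervals and the limit set by a count of 0 cover counting error only. Lengths and coordinates are from GENCODE M21 on the same build. Samples of a group are separate embryos by the labels, and litters are not given in the sources used here.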

Additional observations from a re-analysis of the deposited data

Results flagged for a closer look

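Dixon's criterion at 95% (0.71 for 5 libraries) was applied to 48 groups of 5 libraries, and 7 had a library far from the rest. For independent normal values the criterion flags about 1 in 20. These groups share libraries and some hold counts near 0, so the 7 are not set against that rate. Of the 7, 6 were wild-type library 3. *Cdh1* was at 16.3 normalized counts there, with 4.14 as the nearest other wild-type library, *Epcam* was at 13.2 with 5.16 as the nearest, and *Cldn6* was at 4.07 with 1.03. The summed lung and foregut markers were at 22.4 normalized counts with 8.28 as the nearest, the thymus and pharyngeal markers at 266 with 111, and the neuronal markers at 2715 with 135. The other was the ratio of *Krt8* to *Krt18* per kilobase of transcript, 0.527 in null library 5 with 0.423 as the nearest null library.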

How the results depend on the processing

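No paired analysis was possible because the deposited values are group means and carry no replicate numbers. The log2 ratio of *Cdh1* ran from -1.75 to -0.32 when each library was left out in turn, with the value nearest 0 without wild-type library 3, and the number of gene and list pairs that passed ran from 0 to 1. The pairs that passed, 1 in each case, were *Krt7* with the mesothelial score without null library 4, and *Cdh1* with the lung and foregut score, which rests on 2 genes, without null library 1 (r = 0.90, permutation *P* adjusted over 42 pairs 0.0491). The latter r, 0.76 over all libraries, was 0.48 without wild-type library 3 and 0.19 without the 2 farthest libraries. *Epcam* ran from -1.14 to -0.35 and was -0.27 by group medians, *Cldn6* ran from -1.49 to -0.48 normalized counts, and the keratins stayed between -0.13 and 0.09. Calls over all fitted genes numbered 3 in each setting tried except 4 without wild-type library 4. Calls in the further epithelial genes numbered 0 in each setting tried. Counts of 1 to 16 read pairs limit *Cdh1*, and *Cldn6* gave no ratio.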
